A study of Homo sapiens with 2 samples.

Results

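The 10 genes described here encode secreted growth factors, with 1 exception. They are the transforming growth factors TGFB1 and TGFB2, fibroblast growth factor 2 (FGF2), the vascular endothelial growth factors VEGFA and VEGFB, the platelet-derived growth factors PDGFA and PDGFB, hepatocyte growth factor (HGF), the hepatoma-derived growth factor HDGF, and NUDT6, a nudix hydrolase gene on the strand opposite FGF2. They were chosen by symbol, with no measured value in the rule, from 14467 genes with a row in both deposited tables. Of the 10, 6 had a row, and TGFB2, NUDT6, PDGFA and HGF had none in either library. RNA came from extracellular vesicles, membrane-bound particles released by cells, of the LAD2 line of human mast cells, an established cell line kept in SP34 medium with stem cell factor at 37 °C and 5% CO2. The vesicles were taken after 4 days, and 2 libraries formed the 1 group. Nothing in the labels places the replicates in separate cultures, so their spread may be technical. The series title concerns vesicle mRNA that mast cells deliver to colorectal cancer cells, and no control, parent-cell or recipient-cell sample was analysed here.

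Growth factors of these families leave the producing cell and bind receptors on the surface of others. TGF-beta is secreted in a latent complex with binding proteins (LTBPs), is released by integrins, proteases or thrombospondin-1, and signals through paired serine-threonine kinase receptors to SMAD transcription factors. FGFs, VEGFs, PDGFs and HGF act on receptor tyrosine kinases, and FGFs need heparan sulphate or klotho proteins as co-receptors. Mast cells are known to store or release TGF-beta, FGF2 and VEGF. NUDT6 is the classic antisense partner of FGF2: the genes are transcribed towards each other and their RNAs are complementary over part of their length.

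FGF2, TGFB1 and VEGFA share exonic bases with a gene on the other strand in GENCODE 29 on GRCh38, the build hg38. The labels do not state which strand the counting used, so for each of these 3 pairs a 30-base window from the middle of the longest shared stretch is shown as each gene's transcript reads it. Capitals mark the same 15 base pairs on both lines of a pair, which are reverse complements of each other. The FGF2 and NUDT6 window lies at chr4:122892885-122892914, with FGF2 on the plus strand and NUDT6 on the minus strand.
FGF2: ATAAAACAGTCCTGTgtaaactgctggaag
NUDT6: cttccagcagtttacACAGGACTGTTTTAT
The window shared by TGFB1 (minus strand) and HNRNPUL1 (plus strand) lies at chr19:41301631-41301660.
TGFB1: tcgtcggttcgctttATTGTTCGGTCTTTT
HNRNPUL1: AAAAGACCGAACAATaaagcgaaccgacga
The window shared by VEGFA (plus strand) and ENSG00000272114 (minus strand) lies at chr6:43770508-43770537.
VEGFA: TGGAAACCAGCAGAAagaggaaagaggtag
ENSG00000272114: ctacctctttcctctTTCTGCTGGTTTCCA
A read from any of these windows belongs to 1 gene or the other only by its strand. Without a stated strand setting, the value of either gene in a pair need not measure that gene's own RNA, and the same uncertainty holds for genes with no partner.

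Values are on a log2 scale as deposited. They appear shrunken, since differences between the libraries narrow towards 0 at low levels, so an SD at a low level understates the error. A gene was called detected where its value converted back to a linear scale (base 2) was at least 10 in both libraries. The number of vesicles and the RNA per vesicle cannot be told apart in such bulk RNA. All comparisons are between genes or between the 2 libraries, and none is between conditions. Of the 10 members, 4 were detected (TGFB1, FGF2, PDGFB and HDGF), against 18.4% of the 19951 protein-coding genes of GENCODE 29. Among genes with a row, 4 of 6 members and 45.5% of all genes were detected. The share of protein-coding genes with a row was 42.3%, against 6 of the 10 members (60%).

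TGFB1, the ligand that restrains immune cells and drives fibroblast activation, had the highest value of the 10. It stood at 9.63 in replicate 1 and 9.62 in replicate 2, a mean of 9.62 ± 0.01 (SD, n = 2), or 792 and 785 in linear units. It ranked 359th of all genes with a row, above 98.3% of the protein-coding ones, and took 0.0452% and 0.0424% of the summed linear value. Both libraries placed it far above the median of all genes, 3.06. TGFB1 lies on the minus strand of chromosome 19 from 41301587 to 41353911. Its paralogue TGFB2, on chromosome 1 from 218346235 to 218444619, had no row, and neither did TGFB2-OT1, a non-coding RNA inside its last part. TGFB1 was thus high in both libraries, and TGFB2 has no level to set beside it.

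FGF2, a mitogen of fibroblasts and endothelium that is exported without a signal peptide, came next. Its values were 6.48 in replicate 1 and 6.49 in replicate 2 (mean 6.48 ± 0.01, n = 2), or 89.2 and 89.8 in linear units. This exceeded 87.9% of protein-coding genes with a row. NUDT6, which shares 804 exonic bases with FGF2, had no row, so the planned difference between them could not be computed. The libraries thus listed 1 gene of the pair, at a high level, and did not list the other.

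PDGFB (chromosome 22, 39223359 to 39244751), the B chain of a mitogen for pericytes and smooth muscle, had 4.87 in replicate 1 and 4.96 in replicate 2 (mean 4.92 ± 0.06, n = 2). Those are 29.3 and 31.1 in linear units, above 77.1% of protein-coding genes. PDGFA (chromosome 7, 497258 to 520296), the A chain of the same dimeric factor, had no row. HDGF (chromosome 1, 156742107 to 156766925), a heparin-binding nuclear protein found outside cells as well, had 4.60 and 4.64 (mean 4.62 ± 0.03, n = 2), above 74.2% of protein-coding genes. All 4 detected members lay above the median of all genes in both libraries.

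The VEGF genes were low as deposited. VEGFB (chromosome 11, 64234538 to 64238793), a ligand of FLT1 linked to fatty acid handling in endothelium, had 1.53 and 1.52 (mean 1.52, SD 0.00286, n = 2), below the detection threshold and above 23.7% of protein-coding genes with a row. VEGFA (chromosome 6, 43770184 to 43786487), the main angiogenic ligand, had -0.77 in both libraries (SD 0.00334, n = 2), above 1.1% of them. The VEGFA pair of values was the second lowest of 4738 distinct pairs and was shared with 87 other genes, and the VEGFB pair was shared with 38. Repeated values at this level mean that the tables cannot rank VEGFA against those genes. HGF (chromosome 7, 81699008 to 81770438), the ligand of MET, had no row.

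**Figure D1:**
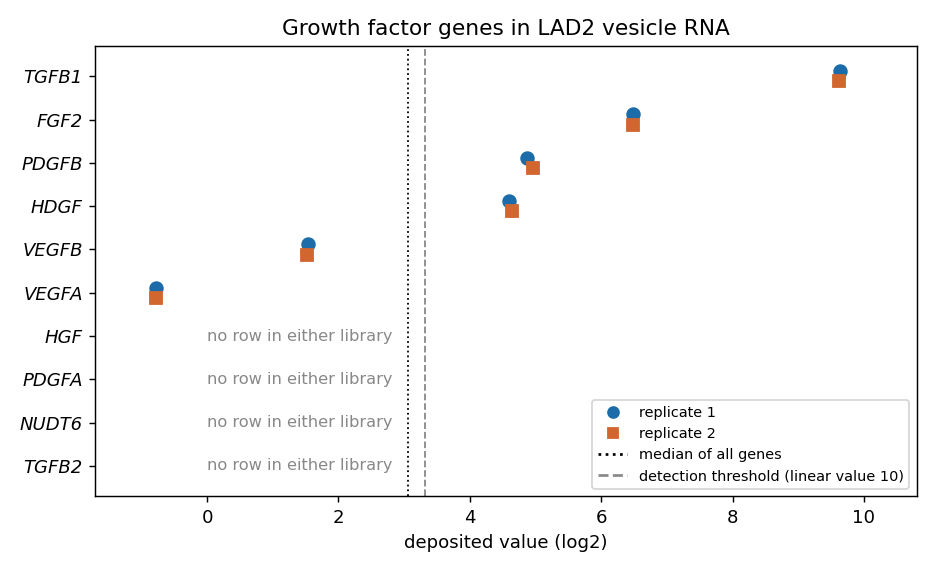
Deposited log2 value (x axis) of each of the 10 genes (y axis), with a circle for replicate 1 and a square for replicate 2, the median of all genes as a dotted line and the detection threshold as a dashed line. TGFB1, FGF2, PDGFB and HDGF lie right of both lines, VEGFB and VEGFA lie left of both, and 4 genes had no row.

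Longer genes collect more reads, so levels were compared between genes per kilobase of exon, as the log2 value minus the log2 of the summed exon length in kilobases. On this scale the order was TGFB1 at 7.93, FGF2 at 3.72, PDGFB at 3.01, HDGF at 2.71, VEGFB at 0.90 and VEGFA at -4.62, against a median of 0.68 over the 8431 protein-coding genes with a row. The step from TGFB1 to FGF2 was 4.20 log2 units per kilobase and that from FGF2 to PDGFB 0.72, both wider than the SDs of the genes. Those SDs may be technical and do not measure the error of a comparison between genes, so they lend the order no support. PDGFB and HDGF differed by 0.29, and with the longest transcript as the length PDGFB minus HDGF was -0.26, so their order is not settled. HDGF and VEGFB were 1.82 apart. VEGFB, low as deposited, exceeded 53.4% of protein-coding genes with a row on this scale, so it was not low per kilobase. The low value of VEGFA per kilobase rests partly on 14431 exonic bases in its models, which include a transcript with retained introns.

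The locus of TGFB1 joined it to several genes on the other strand. HNRNPUL1, which encodes an RNA-binding protein of the hnRNP U family, shares 215 exonic bases with TGFB1 in 2 stretches, from 41301587 to 41301704 and from 41302624 to 41302720 on chromosome 19. These make up 6.64% of the exonic bases of TGFB1, and 1 of its 4 transcripts carries them. In RefSeq (GRCh38.p14) TGFB1 ends before that transcript does, and 22535 bases separate it from HNRNPUL1. HNRNPUL1 had 5.58 in both libraries (SD 0.00249, n = 2), 4.04 log2 units below TGFB1 and 5.06 below it per kilobase. The gene model behind the deposited value of TGFB1 is unknown here.

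The other genes around TGFB1 were lower as well. CCDC97, a coiled-coil gene wholly inside the longest TGFB1 model on the other strand, had 4.18 and 4.20, 5.44 log2 units below TGFB1. TMEM91, a membrane protein gene that overlaps the start of TGFB1 on the other strand with no shared exonic base, had 4.50 and 4.54, a gap of 5.10. B9D2, a cilium gene on the same strand that ends 509 bases before TGFB1 starts, had 3.19 and 3.13. Per kilobase these neighbours stood 4.89 to 5.67 units below TGFB1, and none reached its level on either scale.

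At the FGF2 locus the shared bases lie from 122892575 to 122893225 and from 122897526 to 122897678 on chromosome 4, in the last exon of FGF2. They are 11.9% of the exonic bases of FGF2 and 12.2% of those of NUDT6. The first stretch is in 3 of the 4 FGF2 transcripts and 7 of the 8 NUDT6 transcripts. SPATA5, an AAA ATPase gene that starts 105 bases from NUDT6 in the opposite direction, stood at the lowest value of the tables, -1.06 in both libraries. The nearest gene with a value on the other side of FGF2, the ciliary chaperonin gene BBS12, had 1.77 and 1.74. Of the genes given for this neighbourhood, FGF2 alone lay above the median of all genes.

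At VEGFA the relation was the other way round. ENSG00000272114, an antisense gene of 188 bases from 43770429 to 43770616 on chromosome 6, lies wholly inside the first exon of 2 of the 32 VEGFA transcripts. Its values were 3.97 in replicate 1 and 3.89 in replicate 2 (mean 3.93 ± 0.06, n = 2), 4.70 log2 units above VEGFA and 10.96 above it per kilobase. The gap per kilobase rests largely on lengths of 188 against 14431 exonic bases. VEGFA held the second lowest of the distinct pairs of values, so the size of either gap is uncertain. The flanking genes with a value were high. RSPH9, a radial spoke gene 97.6 kb away on the same strand, had 8.79 and 9.02, and the antisense RNA gene SCIRT, 209 kb away on the other strand, had 7.83 and 8.10.

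**Figure D2:**
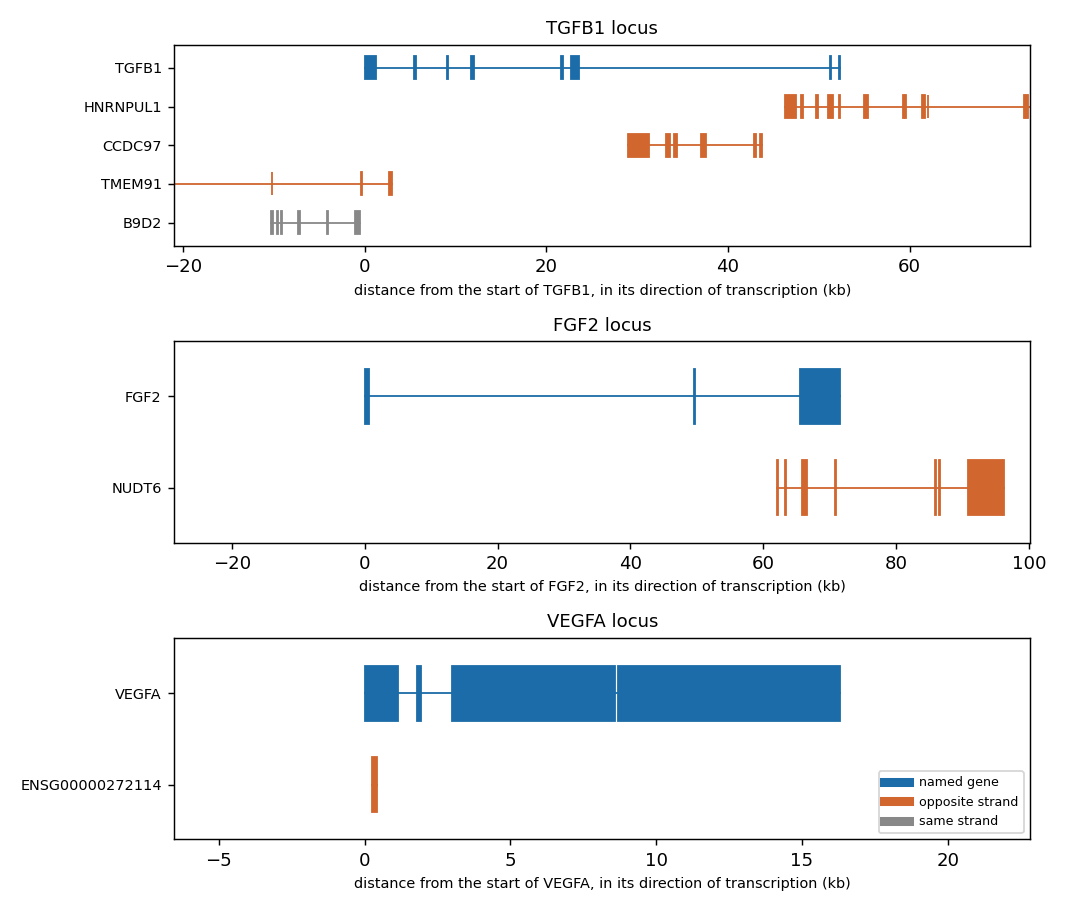
Exon maps of the TGFB1, FGF2 and VEGFA loci from GENCODE 29, with distance from the start of the named gene in its direction of transcription (kb, x axis) and 1 gene per line (blocks are exons, thin lines are gene bodies, colour gives the strand). HNRNPUL1 meets the far end of TGFB1, NUDT6 meets the last exon of FGF2, and ENSG00000272114 lies within the first exon of VEGFA.

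Both genes of an exonic pair thus had values in 2 cases, and the opposite-strand gene was higher in 1 of the 2. Over 3211 protein-coding genes with such a partner and both values, the partner was higher in 63% (median gap 1.46 log2 units, with 5% of gaps below -5.55 and 5% above 7.75). The gap at TGFB1, -4.04, had 10.3% of these gaps below it and that at VEGFA, 4.70, had 78.1% below it. Both gaps exceeded the SDs of their genes. These SDs may be technical and understate the error at the level of VEGFA, so this comparison lends the gaps no support. Neither gap lay outside the range of gaps of other pairs.

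VEGFB, PDGFB and HDGF share no exonic base with an opposite-strand gene. ENSG00000256116, an antisense gene that starts 185 bases from the start of VEGFB and runs the other way, had 8.07 in replicate 1 and 8.43 in replicate 2, 6.73 log2 units above VEGFB. ENSG00000256116 shares 824 exonic bases with NUDT22 on the other strand, so the strand uncertainty applies to its value. PPP1R14B, a phosphatase inhibitor gene 5.69 kb on the other side of VEGFB, had 2.45 and 2.48. PRCC, a splicing-related gene whose body overlaps HDGF on the other strand, had 1.79 and 1.82, 2.81 below HDGF, and METTL25B, 5.15 kb away, had 6.51 and 6.28. PDGFB exceeded its nearest genes with a value, the Polycomb gene CBX7 (3.52 and 3.43) and the ribosomal protein gene RPL3 (2.85 and 2.87). High and low neighbours therefore occurred on both strands around the 6 genes.

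**Figure D3:**
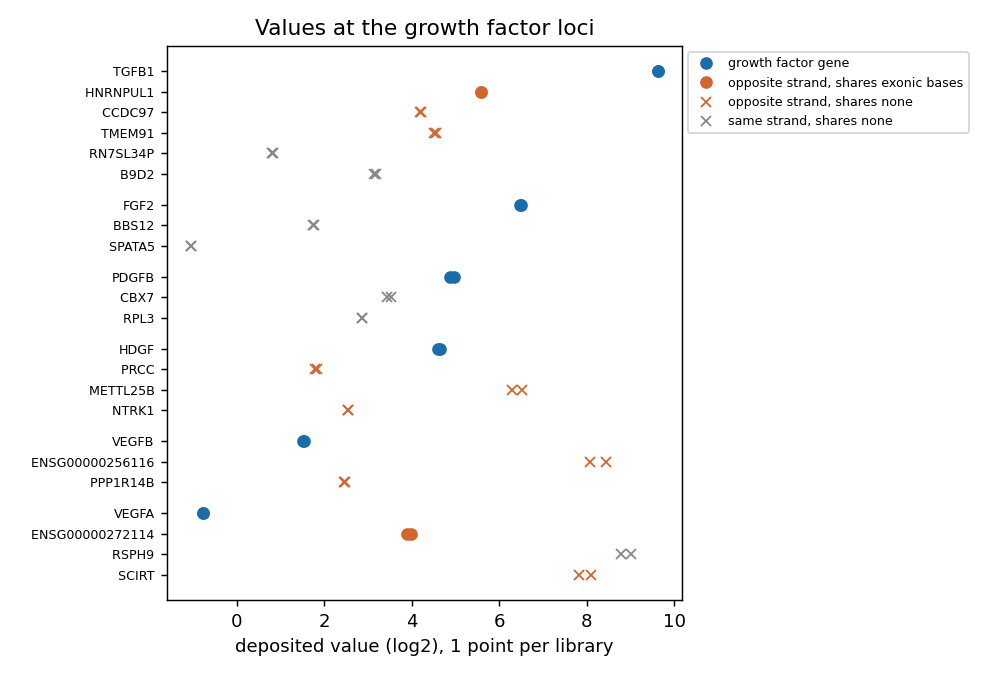
Deposited log2 value (x axis, 1 point per library) of the 6 growth factor genes with a row, each followed by the genes that overlap it and the nearest gene with a value on each side (circles share exonic bases with it, crosses do not, colour gives the strand). TGFB1 and FGF2 lie above every gene drawn with them, and VEGFA at -0.77 lies below all 3 of its neighbours.

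The rest of the pathways was described with 16 gene lists of 146 genes, of which 68 had a row (46.6%) and 30 were detected (20.5%), close to the 42.3% and 18.4% of all protein-coding genes. TGF-beta ligands had a row for 2 of 3, both detected. TGFB3, the third isoform, had 5.42 in replicate 1 and 5.12 in replicate 2 (mean 5.27 ± 0.21, n = 2), 4.96 log2 units per kilobase below TGFB1. Of the genes for latency and activation, 6 of 11 had a row and 3 were detected. THBS1, which can activate latent TGF-beta, had 8.12 ± 0.10, LTBP3, which tethers the latent complex, 8.01 ± 0.15 and LTBP2, a microfibril protein, 4.54 ± 0.04 (n = 2 each). FURIN, the protease that cleaves the TGF-beta precursor, stood at -0.23 and -0.24, a pair of values shared by 753 genes.

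Of the 5 TGF-beta receptor genes 1 had a row. It was ENG, an endothelial co-receptor, at 3.15 ± 0.02 and not detected, and TGFBR1, TGFBR2, TGFBR3 and ACVRL1 had no row. SMADs and their regulators had a row for 5 of 9, with 2 detected. These were SMURF1, a ubiquitin ligase that degrades SMADs and receptors, at 4.72 ± 0.05, and the signal transducer SMAD2 at 3.63 ± 0.07. SKI, a SMAD corepressor, had 2.97 ± 0.03 and was not detected. Together the TGF-beta lists had a row for 14 of 28 (50%) and 7 detected (25%). Over all protein-coding genes the shares were 42.3% and 18.4%, and the difference was not tested.

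The FGF lists together had a row for 21 of 46 (45.7%) and 8 detected (17.4%), near the 42.3% and 18.4% of all protein-coding genes. FGF ligands had a row for 7 of 22, with 3 detected. FGF14, an intracellular member of the family that binds sodium channels, was the highest of them at 10.27 and 10.45 (mean 10.36 ± 0.13, n = 2), above FGF2 by 3.88 log2 units as deposited and by 2.85 per kilobase. FGF7, a keratinocyte mitogen, had 3.53 ± 0.06. FGF14 shares 4354 exonic bases with ITGBL1 on the other strand, which had no row. Receptors and co-receptors had a row for 6 of 12, and the 2 detected were the glypican GPC1 at 3.73 ± 0.02 and the klotho gene KLB at 3.37 ± 0.06, with the syndecan SDC3 at 2.55 ± 0.03. KLB lay very close to the threshold, with 3.32 in replicate 1. FGFR2 and FGFR3 were below the threshold at 1.75 and -0.24, and FGFR1 and FGFR4 had no row. Of signalling and feedback genes 8 of 12 had a row and 3 were detected. ETV4, a transcription factor downstream of FGF signals, had 5.79 ± 0.13, the ERK phosphatase DUSP6 4.23 ± 0.09 and the feedback inhibitor SPRY2 3.63 ± 0.00 (n = 2 each).

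The nudix hydrolases, to which NUDT6 belongs, had a row for 13 of 21 (61.9%) and 8 detected (38.1%), beside 42.3% and 18.4% of all protein-coding genes, a difference that was not tested. Exons of 9 of the 21 overlap exons on the other strand and 8 of these had a row, against 5 of the 12 without such an overlap. The same split over all protein-coding genes, 61.5% against 32.5% with a row, went in the same direction. NUDT17 had 8.10 ± 0.01, and NUDT3, a diphosphoinositol polyphosphate phosphatase, had 7.61 ± 0.20 (n = 2 each). NUDT6 was 1 of the 8 with no row. NUDT22, which lies near VEGFB, had 4.85 ± 0.02.

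In the VEGF family 1 of 10 ligand and receptor genes was detected and in the PDGF family 1 of 6. These are few genes to set against all protein-coding genes, of which 18.4% were detected and 42.3% had a row. Among VEGF ligands 3 of 5 had a row and PGF, the placental growth factor, was the 1 detected, at 4.79 and 4.70 (mean 4.75 ± 0.06, n = 2). VEGF receptors had a row for 3 of 5 and none was detected, with NRP1 at 2.55 ± 0.03, FLT1 at 2.21 ± 0.03 and NRP2 at 2.07 ± 0.02. PDGFB was the 1 of 4 PDGF ligands with a row, and PDGFRA, at 2.22 ± 0.03, the 1 of 2 receptors. In the HGF list 2 of 9 had a row. MST1, the HGF-like macrophage-stimulating protein, had 5.66 ± 0.09 and the protease inhibitor SPINT1 3.20 ± 0.05, and neither HGF nor MET had a row. The HDGF family had 4 of 5, led by PSIP1, a chromatin reader, at 6.89 ± 0.17, followed by HDGF, HDGFL2 (3.25 ± 0.03) and HDGFL3 (3.19 ± 0.05).

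Over the 5 families split by role, ligands had a row for 16 of 43 (37.2%) and 7 detected (16.3%). Receptors and co-receptors of 4 families had a row for 11 of 24 (45.8%) and 2 detected (8.33%). Of all protein-coding genes 42.3% had a row and 18.4% were detected, and the differences were not tested. The median log2 value was 2.82 for the ligands with a row and 2.22 for the receptors with one, beside 2.99 for all protein-coding genes with a row. Exons of 48 pathway genes overlap exons on the other strand, and 34 of these genes had a row (70.8%), with a median of 4.63, and 19 were detected. Of the 98 without such an overlap, 34 had a row (34.7%), with a median of 2.47, and 11 were detected. The same split over all protein-coding genes gave 61.5% and 3.95 against 32.5% and 2.33, in the same direction. Of those genes, 2443 of 6740 with an overlap and 1232 of 13211 without were detected. In 23 pathway genes with a partner and both values, the partner was higher in 12 and the pathway gene in 11. Over the 3211 protein-coding genes with such a partner it was higher in 63%, and the difference was not tested.

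**Figure D4:**
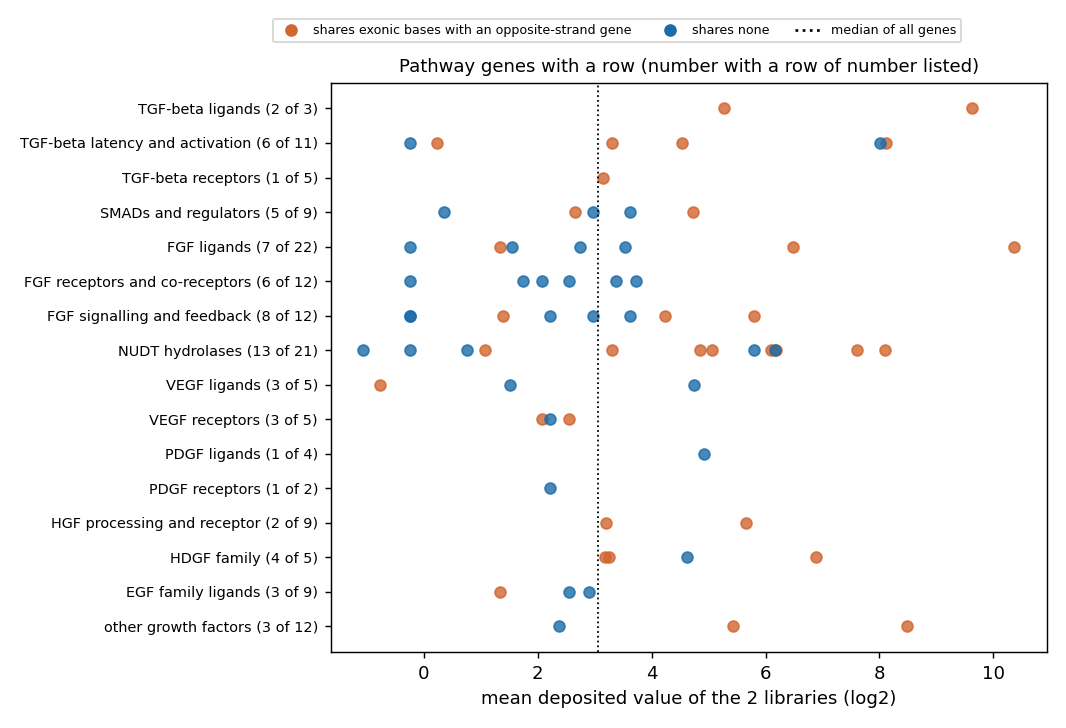
Mean deposited log2 value (x axis) of each pathway gene with a row, by list (y axis, with the number with a row of the number listed), coloured by whether its exons overlap those of a gene on the other strand. FGF14 at 10.36 and TGFB1 at 9.62 lie farthest right. The median of the ligands with a row (2.82) and that of the receptors with a row (2.22) both lie left of the dotted median of all genes.

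The libraries differed little at the members. TGFB1 differed by -0.012 log2 units (replicate 2 minus replicate 1), and 4.16% of the 817 genes with means from 8 to 10 differed by less. FGF2 differed by 0.009, and 4.8% of the 1563 genes with means from 6 to 8 differed by less. PDGFB (0.087) and HDGF (0.045) exceeded 50.9% and 28.2% of the 2560 genes with means from 4 to 6. None of the 4 detected members reached a 2-fold difference, which 0.198% of the 6576 detected genes did. Pooled over the 817 genes with means from 8 to 10, the replicate spread was 0.206 log2 units. This spread is the SD, over the genes, of the difference between libraries, scaled to a single library. It is raised by genes with wide differences, up to 1.54, and the median absolute difference was 0.183. TGFB1 itself had an SD of 0.00857 and a difference of -0.012.

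**Figure D5:**
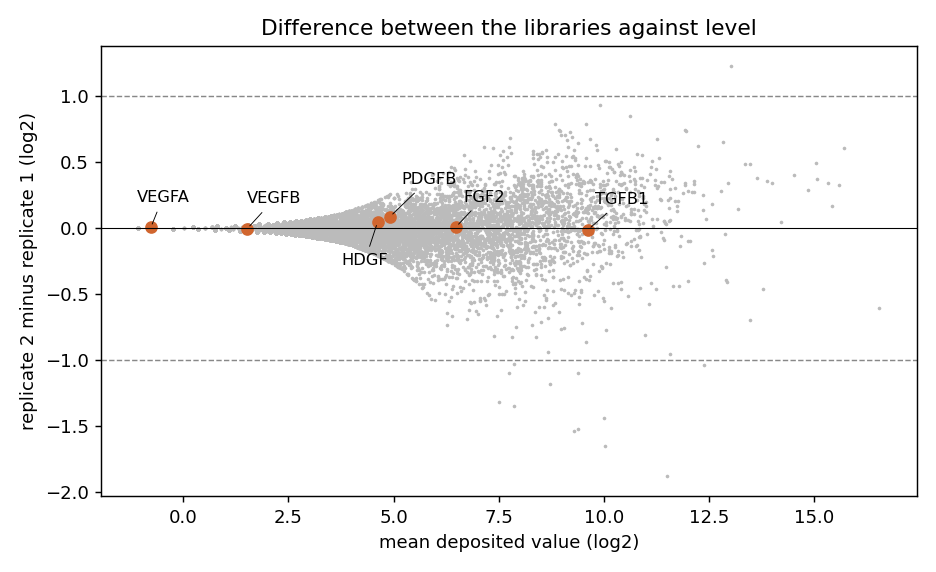
Difference between the libraries (replicate 2 minus replicate 1, log2, y axis) against the mean deposited log2 value (x axis) for all 14467 genes in grey, with the 6 growth factor genes in orange and dashed lines at a 2-fold difference. The grey points narrow towards 0 at low levels, and the 6 genes lie between -0.012 and 0.087.

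By distance of their values over the 2 libraries, the symbols closest to TGFB1 were PPM1F-AS1 (9.66 and 9.66), the vesicle scission ATPase gene VPS4A (9.60 and 9.58) and MED4-AS1 (9.63 and 9.67), all within 0.052 log2 units. Those closest to FGF2 were NDUFAF6, SPDYA and SLC25A30-AS1, within 0.014. With 2 libraries of 1 group this measures level alone.

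Markers of mast cells and of other cell types were read in the same tables. Mast cell markers had a row for 11 of 12 (FCER1A had none), but 3 were detected, namely GATA2, SIGLEC6 and MRGPRX2, and KIT stood at 2.20 and 2.18. Markers of 7 other cell types had a row for 17 of 42 (40.5%) and 7 detected (16.7%), beside 42.3% and 18.4% of all protein-coding genes. Platelets are a known source of TGFB1 and PDGFB. Of 6 platelet markers, THBS1 and GP1BA had a row, and their linear values summed to 527 in replicate 1 and to 454 in replicate 2, while PF4, PPBP, ITGA2B and GP9 had none. The 3 erythroid markers with a row of 6 summed to 443 and 695, most of it from HBA2 at 8.63 and 9.34, whose reads can be split with its near-identical copy HBA1. Of 6 colon epithelium markers 2 had a row and summed to 200 and 159, with VIL1 at 7.64 and 7.30 and MUC2 at -0.23 and -0.24. The other detected markers were the endothelial CLDN5 at 4.30 and 4.39 and the monocyte and macrophage gene CSF1R at 3.94 and 3.91, and of the fibroblast and T cell lists 3 of 6 and 1 of 6 had a row and none was detected. High values were therefore found in some markers of several cell types, but the share detected, 16.7%, was close to the 18.4% of all protein-coding genes. Exons of THBS1, GP1BA and VIL1 overlap exons on the other strand, and those of HBA2, HBA1, CLDN5 and CSF1R do not. Among these markers with a row, the median was higher with such an overlap than without, the direction seen over all protein-coding genes. The part of any of these cell types in the values of TGFB1 and PDGFB was not tested.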

How the data were processed

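RNA of LAD2 vesicles was measured in 2 libraries of 1 group. The tables that the authors deposited are named counts, but their deposited numbers are log2 values, with 1029 genes below 0 in each library and a maximum of 16.85. FastQC 0.11.5, STAR 2.6.1a and hg38 come from the submitters' processing notes. How reads were counted (tool, strand, annotation), how values were transformed and the depth were not given in the sources used, so no counting interval is given.

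Symbols were found for 11066 of 14467 identifiers. Positions, exons and overlaps came from GENCODE 29 (GRCh38), where 13733 identifiers had a model and 734 had none. Partners share at least 1 exonic base on the other strand. With more than 1 partner, that of longest overlap was used. Sequences came from GENCODE 29 transcripts. Error is the SD of 2 libraries. No test was run. The overlap, spread and 2-fold computations were tested on simulated data. Work used Python 3.11.15, numpy 2.4.6, pandas 2.3.3 and matplotlib 3.10.9.

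The members and lists were chosen with earlier results of these data known. Named were the members, overlapping and flanking genes with a value, up to 3 highest genes of each list, and the 3 genes closest in value to TGFB1 and to FGF2; 1 gene that this rule names is not reported here. Other genes of a list, and genes with no row, were named after their values were seen.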

Additional observations from a re-analysis of the deposited data

How the results depend on the processing

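The median log2 value of the 6 members with a row was 4.77, ranged from 4.73 to 4.80 with either library left out and was 4.82 as log2(linear value + 1). Detected members numbered 4 at a linear value of at least 5, 10 or 20 and 2 (TGFB1 and FGF2) at 50, and 6 had a row. No member differed 2-fold or 1.5-fold, while genes over all went from 13 at 2-fold to 74 at 1.5-fold. The opposite-strand gene was higher for 1 member under all 5 alternatives tried (at least 100 shared bases, overlapping gene bodies, per kilobase, either library left out). That was 1 of 3 members with overlapping gene bodies and 1 of 2 otherwise. The share over protein-coding genes was 61.2% with overlapping gene bodies, 67.3% per kilobase and 63% in the main setting. The 30 detected pathway genes became 45 at a linear value of 5 and 24 at 20. No paired analysis was possible because both libraries belong to 1 group. Read depth is not given, and shrinkage limits what the SDs of VEGFA and VEGFB can show.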

Other observations

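Of the 21 growth factors listed outside these families, 6 had a row (28.6%) and 2 were detected (9.52%), where 42.3% and 18.4% of all protein-coding genes did, and this difference was not tested. EGF family ligands had a row for 3 of 9 and none was detected, with EGF at 2.91 ± 0.04, NRG1 at 2.55 ± 0.03 and NRG2 at 1.34 ± 0.01 (n = 2 each). Of 12 further growth factors 3 had a row and 2 were detected. GAS6, a ligand of TAM receptors, had 8.57 in replicate 1 and 8.38 in replicate 2 (mean 8.48 ± 0.13, n = 2), and its opposite-strand partner GAS6-AS1, which shares 421 exonic bases with it, stood 5.94 log2 units lower. ANGPT2, an antagonist of the TEK receptor, had 5.43 ± 0.10, and GDF15, a stress-induced factor, had 2.38 ± 0.01.

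The widest partner gaps among the pathway genes went in both directions. ENSG00000274021 stood 6.10 log2 units above DUSP6, and SEC61A2 stood 6.05 above NUDT5. UBE2N stood 5.33 below NUDT4, with 2474 shared exonic bases.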
